A study of Mus musculus with 6 samples.

Results

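Polyamine metabolism was described through 9 genes: Odc1, Azin1, Oaz1, Oaz2, Amd1, Srm, Sms, Sat1 and Smox. They were found by matching mouse gene symbols among the 49315 genes of the deposited tables, and all 9 passed the filter on low counts, as did 12928 genes in all. The list was drawn up with earlier results of these libraries in view, including a low Odc1 level with rapamycin, so the ratios below are a description. They were chosen by role in the pathway together with their TMM-scaled levels and ratios between these libraries, and no test is attached to either.

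The RNA came from mouse CBir1 TCR Tg CD4+ T cells, which carry a transgenic receptor for a flagellin of the gut microbiota, on a C57BL/6 background. Each of the 6 conditions had 1 library and therefore no replicate. In 5 of them, CD45.1 CD4+ CD44- donor cells had been given to CD45.2 mice on day 0, and the hosts were immunised on days 1 and 7 with 50 µg of CBir1 flagellin plus 1 µg of CT. The MEP1+Metformin+Rapamycin, MEP1+Rapamycin, MEP1+Metformin and MEP1+CMC mice received 3 µg of MEP1 on days 28 and 35, followed by 5 days of both inhibitors, rapamycin, metformin or only CMC, the vehicle that every inhibitor group also received. The No treatment mice got neither MEP1 nor inhibitor in that period, and no CMC is stated for them. By the treatment protocol all 5 groups were challenged with 3 µg of MEP1 on day 56, although the deposited counts of No treatment are headed as without challenge. Donor cells still present in the spleen were sorted on day 63. The naive CD4 control is labelled as spleen CBir1 TCR Tg CD4+ T cells. The hosts kept their own immune cells, and the labels do not give ages or the number of animals behind a library.

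Polyamines are small, positively charged molecules that bind nucleic acids and are made in larger amounts when lymphocytes are activated. Ornithine decarboxylase, encoded by Odc1, makes putrescine, and spermidine synthase (Srm) and spermine synthase (Sms) extend it with groups donated by decarboxylated S-adenosylmethionine, the product of Amd1. Antizymes, encoded by Oaz1 and Oaz2, bind the decarboxylase and send it to the proteasome, while the antizyme inhibitor Azin1 binds antizymes in its place. Sat1 acetylates spermidine and spermine for export or breakdown, and Smox oxidises spermine to spermidine. Much of this control acts on translation and protein stability, which RNA counts do not measure.

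Promoter sequence upstream of Odc1 is shown because Odc1 was the only 1 of the 9 genes past the threshold in both rapamycin comparisons, and that of Sms because it was the only gene with a match to CACGTG, the E-box bound by Myc and related factors, among the 7 genes with a RefSeq promoter entry. Capitals mark GGGCGG or its reverse complement CCGCCC, a GC box, and CACGTG, whose reverse complement is itself; both strands were searched and no marked matches overlap. Both stretches, from RefSeq promoters on GRCm38.p6, are upstream of the gene: Odc1 at chr12:17544623-17544793 on the plus strand, up to the GENCODE start at 17544794 (the deposited table starts the gene at 17544873), and Sms at chrX:157492288-157492537 on the minus strand.
Odc1: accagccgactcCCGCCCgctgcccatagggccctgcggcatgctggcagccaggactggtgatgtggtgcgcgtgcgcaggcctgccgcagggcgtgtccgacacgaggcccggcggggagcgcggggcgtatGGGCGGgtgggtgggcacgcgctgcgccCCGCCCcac
Sms: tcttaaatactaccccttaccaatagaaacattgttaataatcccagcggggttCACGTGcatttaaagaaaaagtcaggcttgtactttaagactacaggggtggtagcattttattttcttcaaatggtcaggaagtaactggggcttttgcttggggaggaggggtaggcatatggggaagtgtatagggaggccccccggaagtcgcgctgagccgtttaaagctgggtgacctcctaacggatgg
The Odc1 stretch held 3 GC box matches and no CACGTG. Only promoter windows were searched, so a CACGTG elsewhere in Odc1 or in the other genes would not have been seen. Another RefSeq promoter window of Sms, not shown, held 4 GC box matches and no CACGTG. Of 32817 promoter windows, 35.6% held GGGCGG on either strand and 7.15% held CACGTG, so a GC box was common among promoters in general.

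Levels are given in CPM after TMM scaling (TMM CPM), the count over the scaled library size, which corrects for differences in RNA composition between libraries. A log2 ratio puts the first-named library over the second, with a 95% Clopper-Pearson interval of the counts that covers counting error only. A gene is called higher or lower where it differed 2-fold or more and its interval left out 0. Library totals lay between 26139000 and 60622310 counts. All 10 CD4 T-cell markers were detected in every library, with summed levels of 8362 to 11640 TMM CPM, so the label fits its markers. The libraries differed in sex-linked genes. Xist was at 0.32, 0.53 and 0.22 TMM CPM in MEP1+Metformin+Rapamycin, MEP1+Rapamycin and MEP1+Metformin, against 257 in MEP1+CMC and 42.8 in the naive library, while the Y-linked Ddx3y was between 67.9 and 95.9 in those 3, against 0.30 in MEP1+CMC and 0.37 in the naive library. The No treatment library held both Xist, at 23.0, and Ddx3y, at 34.2. Where an inhibitor library is set against MEP1+CMC, No treatment or the naive library, and in every comparison with No treatment, treatment and sex-linked expression therefore cannot be told apart. The 3 inhibitor libraries did not differ among themselves in this way.

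Odc1, on chromosome 12 at 17544873 to 17551502 in GRCm38, was low in both libraries from rapamycin-treated mice. It had 75.4 TMM CPM in MEP1+Metformin+Rapamycin and 72.6 in MEP1+Rapamycin, against 161 in MEP1+Metformin, 187 in MEP1+CMC and 176 in No treatment, and the naive library was lowest at 44.1. These levels rest on 4273, 2459, 8126, 11183, 10666 and 825 counts in the same order. Both rapamycin libraries lay below both other MEP1 libraries, as did 16.5% of all genes, and below No treatment. The difference between MEP1+Metformin+Rapamycin and MEP1+Rapamycin lay within counting error, but these libraries differ in metformin and are not replicates.

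**Figure D1:**
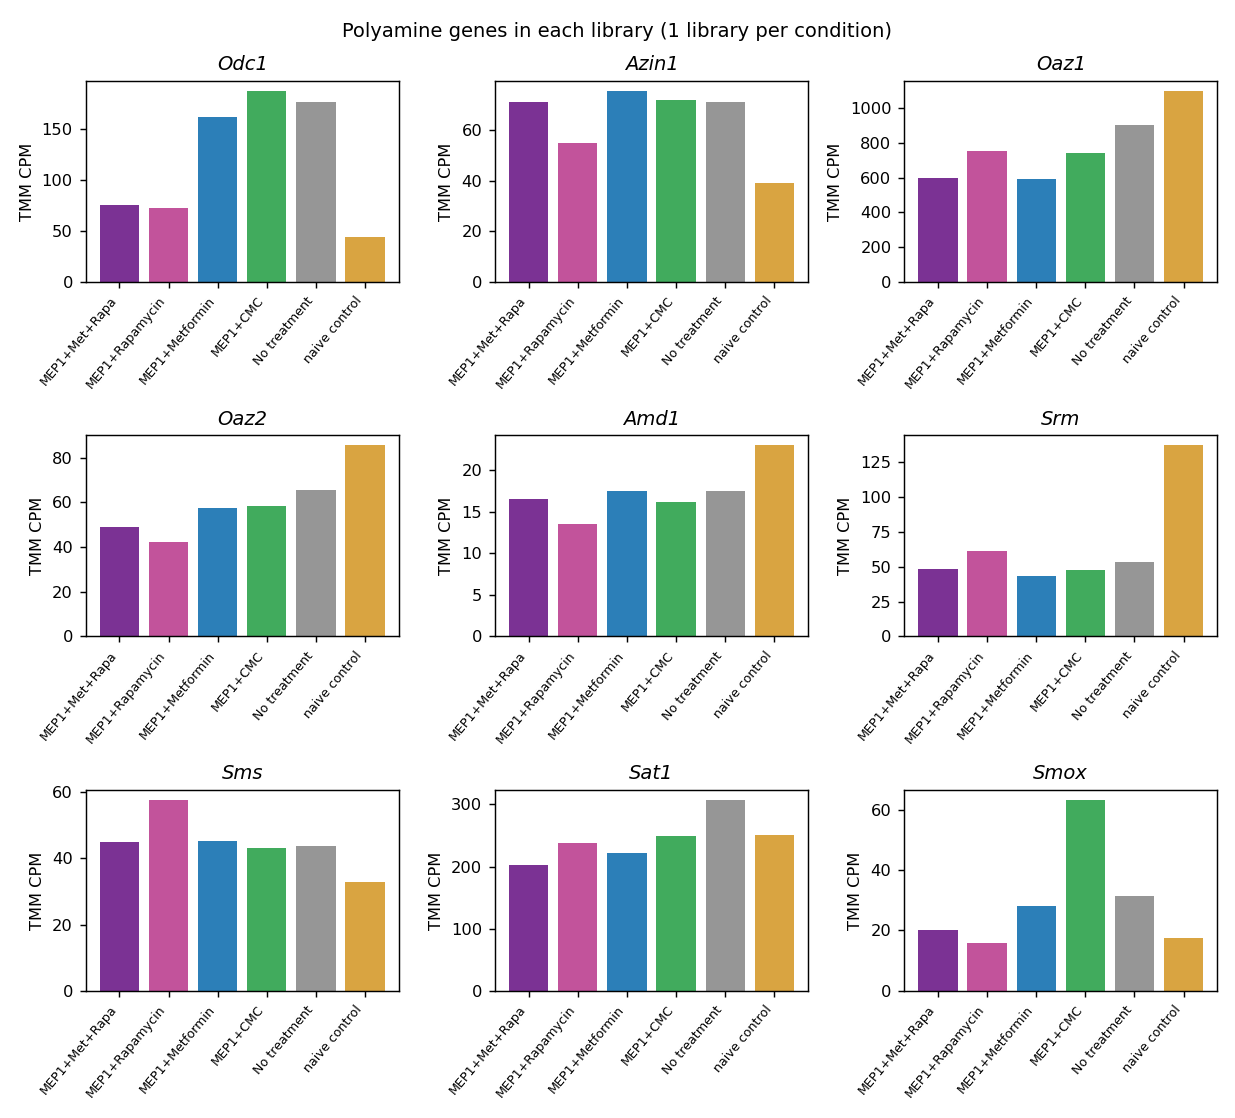
TMM CPM of the 9 polyamine genes in each of the 6 libraries, 1 panel per gene, with 1 library per condition and no replicate error. Odc1 lies at 75.4 and 72.6 in the 2 rapamycin libraries and at 161 to 187 in the other 3 transferred libraries, and Smox is highest in MEP1+CMC at 63.4.

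The first comparisons set cells from mice given rapamycin, an mTOR inhibitor, against cells from mice not given it, without and with metformin. Against MEP1+CMC, MEP1+Rapamycin had a log2 ratio of -1.37 for Odc1 (95% interval -1.43 to -1.30), and 2 of the 9 genes, Odc1 and Smox, were lower while none was higher. By the same rule 4.49% of all genes were lower, and the rule that formed the list had used this contrast. Against MEP1+Metformin, MEP1+Metformin+Rapamycin had a ratio of -1.10 for Odc1 (-1.15 to -1.04), the only 1 of the 9 genes past the threshold, where 1.9% of all genes were lower. Of the 12928 genes, 2.74% had a ratio as low as or lower than Odc1 in the first pair and 1.65% in the second. Genes lower in both pairs numbered 73, or 0.565%, and among the 9858 genes with at least 2 CPM in every library they numbered 8, Odc1 included. The list was formed with ratios between these libraries in view, so the shares in both pairs only describe Odc1. Markers of other cells also differed in these pairs. Summed over 10 erythroid and platelet genes, MEP1+Rapamycin had 104 TMM CPM against 357 in MEP1+CMC. Over 9 B-cell genes, MEP1+Metformin+Rapamycin had 79.0 against 15.3 in MEP1+Metformin, with all 9 detected in both, and over 8 neutrophil genes it had 15.8 against 0.695, with Camp and Elane at 0 in MEP1+Metformin. Over 20 proliferation genes the sums were 681 in MEP1+Rapamycin against 825.8 in MEP1+CMC. They were 783.1 in MEP1+Metformin+Rapamycin against 814.5 in MEP1+Metformin. The part of all these markers in the ratios of the 2 pairs was not tested.

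The antizymes and the antizyme inhibitor did not reach 2-fold in either pair. Oaz1, on chromosome 10, had 599 and 753 TMM CPM in MEP1+Metformin+Rapamycin and MEP1+Rapamycin, against 594 and 743 in MEP1+Metformin and MEP1+CMC, 903 in No treatment and 1101 in the naive library. Its levels in the rapamycin libraries overlapped with those in the other MEP1 libraries. Oaz1 had a ratio of 0.02 in MEP1+Rapamycin against MEP1+CMC and 0.01 in MEP1+Metformin+Rapamycin against MEP1+Metformin, and Oaz2 had -0.46 and -0.24. Azin1, the antizyme inhibitor on chromosome 15, had -0.39 and -0.09. It was at 70.9 TMM CPM in MEP1+Metformin+Rapamycin and 54.9 in MEP1+Rapamycin, against 75.5 in MEP1+Metformin, 72.0 in MEP1+CMC, 71.1 in No treatment and 39.0 in the naive library, so MEP1+Rapamycin was the low one among the transferred libraries. Oaz2, on chromosome 9, had 48.8 and 42.4 TMM CPM in MEP1+Metformin+Rapamycin and MEP1+Rapamycin, against 57.6, 58.6 and 65.5 in MEP1+Metformin, MEP1+CMC and No treatment and 85.7 in the naive library, so both rapamycin libraries were lowest. Counts on genes named as Oaz1 copies came to 3.69% to 4.12% of the Oaz1 count, and reads could be split between such copies. Levels per kilobase of annotated exon depend on that length, which was 2558 bases for Oaz1 and 2547 for Odc1. The annotated exons of Oaz1 take up nearly all of its locus, 80826656 to 80829290, so setting the 2 genes side by side is rough. On this scale the level of Oaz1 was 7.90 times that of Odc1 in MEP1+Metformin+Rapamycin and 10.3 times in MEP1+Rapamycin. The quotient was 3.67 in MEP1+Metformin, 3.95 in MEP1+CMC, 5.10 in No treatment and 24.9 in the naive library. This quotient was higher in both rapamycin libraries than in the other transferred ones and highest in the naive library. Oaz1 hardly differed within either rapamycin pair, so there the quotient restates the Odc1 difference.

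Of the enzymes that build spermidine and spermine, Srm had ratios of 0.37 without and 0.16 with metformin, Sms 0.42 and -0.01, and Amd1 -0.25 and -0.08. The acetyltransferase gene Sat1 had -0.07 and -0.13. None of the 4 was past the threshold in either pair. Sms had 44.8 and 57.8 TMM CPM in MEP1+Metformin+Rapamycin and MEP1+Rapamycin, against 45.1, 43.2 and 43.8 in MEP1+Metformin, MEP1+CMC and No treatment and 32.8 in the naive library, and MEP1+Rapamycin alone was high. Sat1 had 202 and 238 in the rapamycin libraries, against 222 and 249 in MEP1+Metformin and MEP1+CMC, 308 in No treatment and 252 in the naive library. Sms and Sat1 lie on the X chromosome. Amd1 stayed between 13.6 and 17.5 TMM CPM in the transferred libraries, against 23.0 in the naive library, with copies holding 3.41% to 6.32% of its count. Both rapamycin libraries lay below both other MEP1 libraries for 4 of the 9 genes, Odc1, Azin1, Oaz2 and Smox, where 16.5% of all genes did so. Srm lay above in both, as did 16.6% of all genes, but not with DESeq2 size factors. With library totals Azin1 was no longer among those below and Sat1 was. Azin1 also dropped out with totals without 5 loci resembling ribosomal RNA. With TMM factors from all genes Sat1 also lay below, and Sms lay above. Both metformin libraries lay below both other MEP1 libraries for Oaz1 and Sat1, as did 22.1% of all genes, and above for Amd1, as did 20.3%; Sat1 was not among them with library totals or with TMM factors from all genes.

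**Figure D2:**
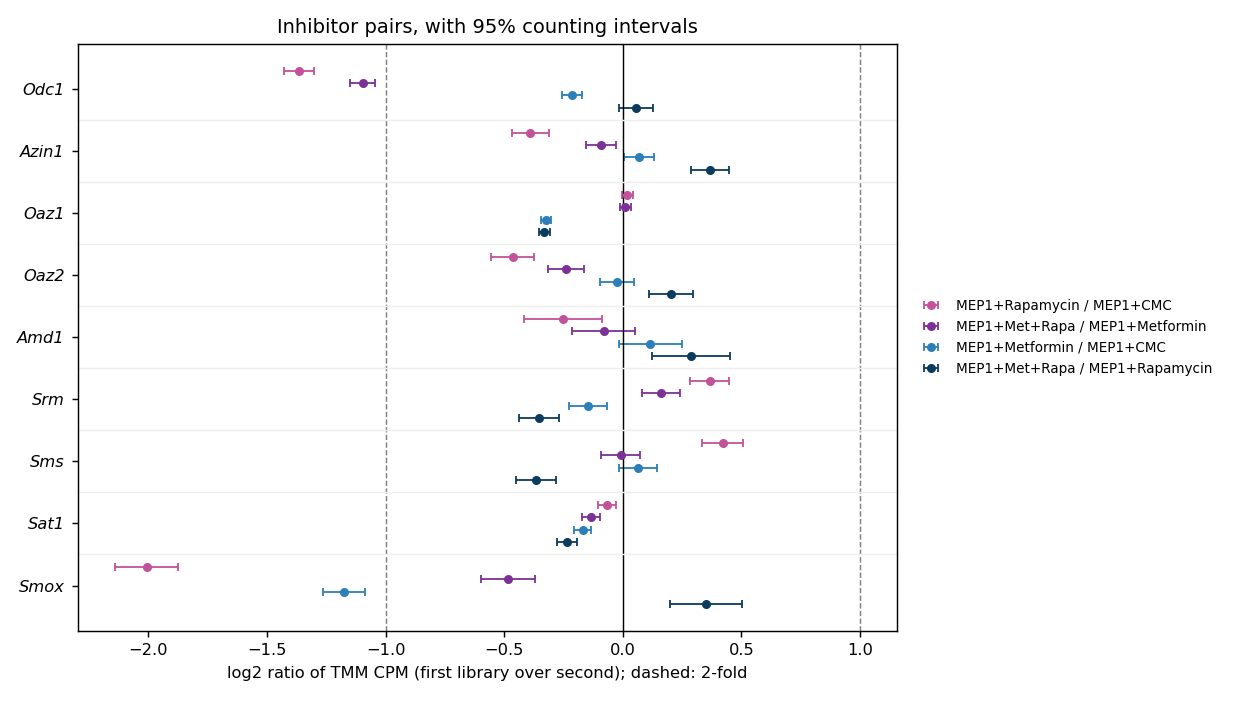
Log2 ratios of TMM CPM for the 9 genes in the inhibitor comparisons, each point 1 library over another, with bars for the 95% counting interval and dashed lines at 2-fold. Odc1 lies past the line in both rapamycin comparisons, at -1.37 and -1.10, and Smox in MEP1+Rapamycin and in MEP1+Metformin, each over MEP1+CMC.

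**Figure D3:**
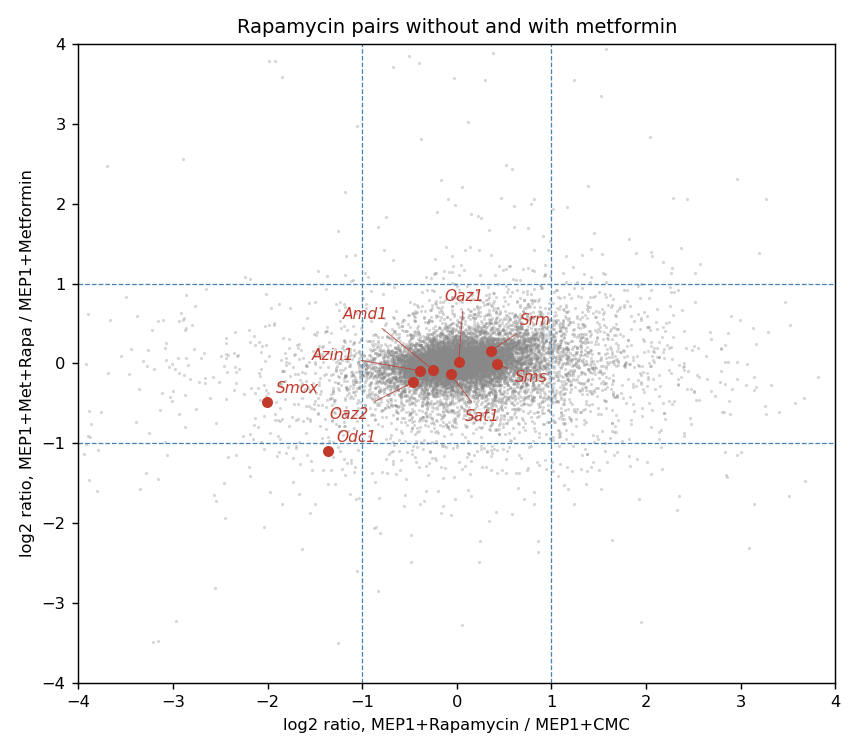
Each grey point is 1 of 12928 genes, with the log2 ratio of MEP1+Rapamycin over MEP1+CMC on the horizontal axis and that of MEP1+Metformin+Rapamycin over MEP1+Metformin on the vertical axis; both axes end at -4 and 4, and dashed lines mark 2-fold. Among the 9 polyamine genes, in red, Odc1 alone lies past 2-fold on both axes.

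Smox, the spermine oxidase, on chromosome 2 at 131491496 to 131525922, followed another order. It had 20.1 TMM CPM in MEP1+Metformin+Rapamycin, 15.8 in MEP1+Rapamycin and 28.1 in MEP1+Metformin, against 63.4 in MEP1+CMC, 31.4 in No treatment and 17.6 in the naive library. MEP1+CMC stood above every other library. The naive library was among the lowest. MEP1+CMC also differed from the inhibitor libraries in Xist and Ddx3y, and the part of this in the Smox ratios was not tested. MEP1+Rapamycin against MEP1+CMC gave -2.01 (-2.14 to -1.88) and MEP1+Metformin against MEP1+CMC -1.18 (-1.26 to -1.09). In MEP1+Metformin against MEP1+CMC, Smox was the only gene of the 9 past the threshold, where 2.76% of all genes were lower. Summed erythroid and platelet markers were at 58.5 TMM CPM in MEP1+Metformin against 357 in MEP1+CMC. Over 7 plasma-cell genes the sums were 715 in MEP1+Metformin and 918 in MEP1+Rapamycin, against 1214 in MEP1+CMC. The part of these markers in the ratios was not tested.

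MEP1+Metformin+Rapamycin against MEP1+Metformin had a Smox ratio of -0.48 (-0.60 to -0.37), short of 2-fold. Against MEP1+Rapamycin its ratio was 0.35 (0.20 to 0.50), and 0 of the 9 genes passed in that comparison of MEP1+Metformin+Rapamycin against MEP1+Rapamycin, where 6.98% of all genes did in either direction. Odc1 had a ratio of 0.05 there (-0.02 to 0.13), and of -0.21 in MEP1+Metformin against MEP1+CMC. Neither comparison for metformin, an inhibitor of mitochondrial respiration, gave a 2-fold difference in Odc1. Both inhibitors together, MEP1+Metformin+Rapamycin against MEP1+CMC, gave Odc1 at -1.31 and Smox at -1.66, the 2 of the 9 genes that were lower, where 3.64% of all genes were.

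Against No treatment, which differs in MEP1 on days 28 and 35 and, as far as stated, in CMC, MEP1+CMC was higher in Smox alone, with a ratio of 1.02 (0.94 to 1.10), where 8.69% of all genes were higher. With TMM factors from all genes that ratio was 0.97 and the call was lost. Odc1 had 0.09 in this comparison. MEP1+Metformin+Rapamycin and MEP1+Rapamycin were each lower in Odc1 alone, at -1.23 and -1.28, where 4.41% and 5.04% of all genes were lower. Smox in MEP1+Rapamycin, at -0.99, just missed the threshold, and it passed with DESeq2 size factors and with TMM factors from all genes. MEP1+Metformin passed for 0 of the 9 genes, against 14.7% of all genes in either direction. The summed level of 15 macrophage and monocyte markers was 664, 601, 627 and 891 TMM CPM in MEP1+Metformin+Rapamycin, MEP1+Rapamycin, MEP1+Metformin and MEP1+CMC, against 4040 in No treatment, and their part in these ratios was not tested.

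Against the naive library, Odc1 was higher in 3 transferred libraries and Srm lower in all 5. Odc1 ratios were 0.78 in MEP1+Metformin+Rapamycin, 0.72 in MEP1+Rapamycin, 1.87 in MEP1+Metformin, 2.09 in MEP1+CMC and 2.00 in No treatment, so that the 2 rapamycin libraries fell short of 2-fold. Scaled by library totals they were 1.43 and 1.27 and passed. Srm, the spermidine synthase, on chromosome 4 at 148591503 to 148594993, had 48.2, 61.5, 43.1, 47.7 and 53.5 TMM CPM in those libraries, against 137 in the naive library, and was lower by the rule in all 5 with TMM scaling. Scaled by library totals, its ratios were -0.86, -0.61, -1.01, -0.98 and -0.88, and only MEP1+Metformin passed. Azin1 ratios lay between 0.49 and 0.95 and Sms ratios between 0.40 and 0.82, all short of 2-fold. Scaled by library totals, Azin1 passed in all 5 and Sms in MEP1+Metformin+Rapamycin, MEP1+Rapamycin and MEP1+Metformin, at 1.11, 1.37 and 1.12.

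In No treatment against the naive library, 1 gene was higher (Odc1) and 1 lower (Srm), where 15.8% and 8.21% of all genes were. MEP1+CMC had Odc1 and Smox higher and Srm lower, where 20.2% and 9.51% of all genes were, and MEP1+Metformin had Odc1 higher and Srm lower, where 21.8% and 11.8% were. MEP1+Metformin+Rapamycin was lower in Srm alone, where 9.98% of all genes were, and MEP1+Rapamycin in Srm and Oaz2, at -1.01 for Oaz2, where 5.99% were. The Oaz2 call was lost with library totals, at -0.46, and with totals without the loci resembling ribosomal RNA. The naive library lay above all 5 transferred libraries for Oaz1, Oaz2, Amd1 and Srm, as for 31.8% of all genes, and below them for Odc1, Azin1 and Sms, as for 35.6%. Scaled by library totals, of the first 4 genes only Srm remained above, and Oaz1, Oaz2 and Amd1 lay inside the range. With that scaling the naive library lay below all 5 for Sat1 and Smox as well as for Odc1, Azin1 and Sms. The transferred libraries had 1.00% to 3.13% of their counts on 5 loci that resemble ribosomal RNA, against 15.4% in the naive library. Summed macrophage and monocyte markers lay between 601 and 4040 TMM CPM in the transferred libraries, against 93.9 in the naive library, where Vsig4, Marco and Fcgr1 were at 0. The 2 CD8 genes summed to 3.24 to 7.24, against 30.1, and the B-cell genes to 15.3 to 79.0, against 118. The part of these in the ratios was not tested. In these bulk libraries, fewer cells of a type and less RNA per cell cannot be told apart.

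**Figure D4:**
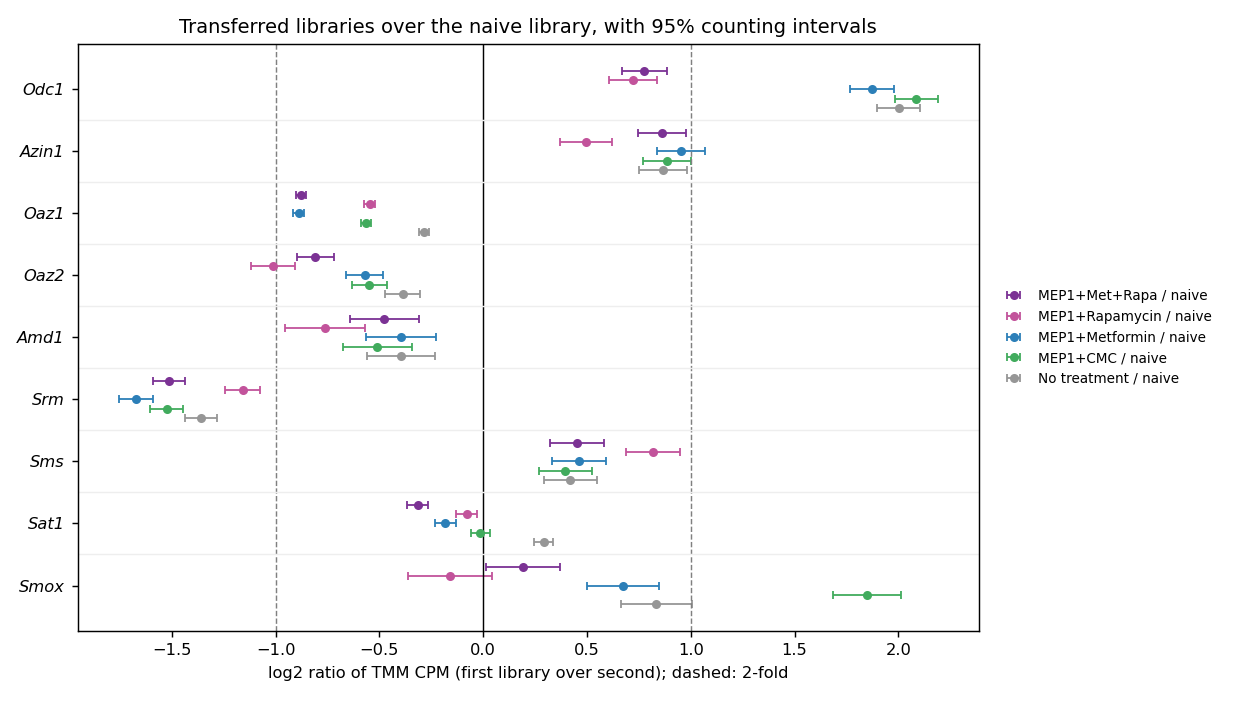
Log2 ratios of TMM CPM of each of the 5 transferred libraries over the naive library for the 9 genes, with 95% counting intervals and dashed lines at 2-fold. Odc1 separates the rapamycin libraries, at 0.78 and 0.72, from the other 3, at 1.87 to 2.09, while Srm lies below -1 in all 5.

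The 9 genes differed in how far they varied. The highest level was 2.58 times the lowest for Odc1 over the 5 transferred libraries and 4.02 times for Smox, against a median of 1.46 times over 9858 genes with at least 2 CPM in every library. With the naive library the span was 4.25 times for Odc1 and 3.19 times for Srm, against a median of 1.71. Neighbouring levels often lay within counting error: for Amd1 this held across MEP1+Metformin, No treatment, MEP1+Metformin+Rapamycin and MEP1+CMC.

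The genes whose level followed Odc1 most closely over the 6 libraries were Egr2, Dusp6, Mex3c, Abi2 and Gadd45b, out of 10193 genes with at least 50 counts in every library. Likeness was the root mean square difference of centred log2 levels, which was 0.157 for Egr2 and 0.169 for Dusp6. Egr2, a transcription factor, had 25.0 and 23.8 TMM CPM in MEP1+Metformin+Rapamycin and MEP1+Rapamycin, against 40.8, 59.2 and 47.6 in MEP1+Metformin, MEP1+CMC and No treatment and 14.7 in the naive library. Smox ranked 121 and Azin1 375 by the same measure, and Srm ranked 9673. Without the naive library only Egr2 and Dusp6 stayed among the closest 5, Smox ranked 140, Azin1 1625 and Srm 7673, and Oaz2 ranked 332 in place of 6110.

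Beyond the 9 genes, 46 genes in 7 lists covered arginine and ornithine supply, methionine and its salvage, other catabolism, hypusine, transport, paralogs of the antizymes and enzymes, and the Myc network, and 29 of the 46 passed the filter on low counts. In the 4 inhibitor comparisons 2 of these 29 were past the threshold, both higher in MEP1+Rapamycin against MEP1+CMC. They were Arg1, an arginase that makes ornithine, at 1.92 against 0.90 TMM CPM, and Aoc2, an amine oxidase, at 8.09 against 3.38. The share of all genes higher in that comparison was 7.4%. Both levels are low. Arg1 met the filter on low counts only in MEP1+Rapamycin, the library in which it was called higher. It was thus among the 29 genes through that library alone, and its call is only a description. With TMM factors from all genes, chosen as an alternative after seeing the data, the Arg1 ratio was 0.93 and its call was lost. Myc, a known activator of Odc1 transcription, had 48.1, 56.6 and 44.7 TMM CPM in MEP1+Metformin+Rapamycin, MEP1+Rapamycin and MEP1+Metformin, against 30.0 in MEP1+CMC, 35.6 in No treatment and 110 in the naive library. The Myc ratio was 0.92 in MEP1+Rapamycin against MEP1+CMC and 0.11 in MEP1+Metformin+Rapamycin against MEP1+Metformin, beside -1.37 and -1.10 for Odc1.

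Hypusine is made from spermidine on the translation factor eIF5A by Dhps and Dohh. Eif5a had 570, 674, 575 and 676 TMM CPM in MEP1+Metformin+Rapamycin, MEP1+Rapamycin, MEP1+Metformin and MEP1+CMC, against 807 in No treatment and 1099 in the naive library. Dhps lay between 48.8 and 73.6 TMM CPM in the 6 libraries. Dohh had 64.7 in No treatment against 154 in the naive library, a ratio of -1.25, and was lower by the rule with TMM scaling but not with library totals, at -0.78. Also lower, under each scaling run, were Myc at -1.63 and Mnt, a repressor in the Myc network, at -1.53. Of the pathway genes past the filter on low counts, Aoc2, at 2.37, and Arg1, with 21 counts against 0, were higher in that comparison. Mat2a, which makes S-adenosylmethionine, had 371, 312, 361 and 282 in the 4 MEP1 libraries in the order above, against 322 in No treatment and 236 in the naive library.

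**Figure D5:**
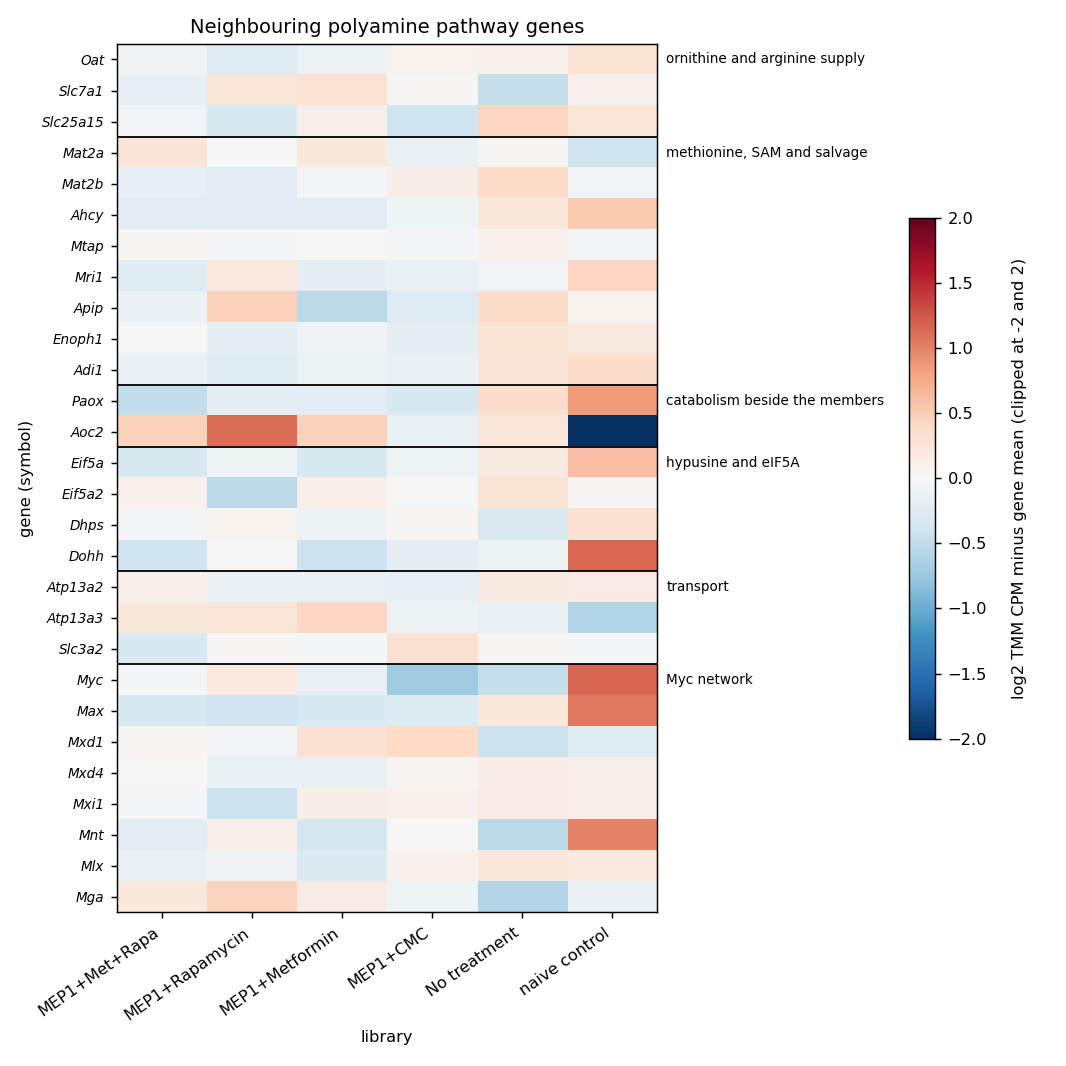
Log2 TMM CPM of pathway genes that passed the filter on low counts in the 6 libraries, each gene centred on its own mean, with the colour scale clipped at -2 and 2. Arg1 is left out because it had a count of 0 in the naive library; Myc is highest in the naive library, at 110 TMM CPM.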

How the data were processed

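RNA was sequenced from sorted CD4+ T cells, 1 library for each of 6 conditions. Per the submitters' processing notes, Trimmomatic 0.36, STAR 2.5.2b and featureCounts from Subread 1.5.2 were used with GRCm38. The deposited values are raw read counts per gene, made by the authors. What annotation release, strand setting and handling of multi-mapping reads were used is not given in the sources used here. Counts of No treatment are headed as a group without challenge, while the treatment protocol has all recipients challenged; the sample's treatment label was followed.

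Genes with at least 2 CPM and 10 counts in 1 library were kept. TMM factors came from edgeR 4.0.16 in R 4.3.3, and intervals from scipy 1.17.1. With 1 library per group there is no test and no p-value, and nothing says how many cultures or animals a library stands for. A ratio against a count of 0 uses a floor of 3 counts. The ratios, intervals and 2-fold rule were tested on simulated counts with counting error only. That simulation held no variation between animals and cannot show how such variation would affect the calls. The genes and lists were chosen with earlier results of these data known. All 9 genes are named. Other pathway genes had to pass the filter on low counts. They are named where past the threshold in an inhibitor comparison or in No treatment against naive. Myc, Mat2a, Eif5a, Dhps and Dohh are named in any case, as are the 5 genes most like Odc1. Alternatives were DESeq2 1.42.0 size factors, library totals, a fold threshold of 1.5, other filters, counts of likely copies added, and, chosen after seeing the data, TMM factors from all genes and totals without 5 loci resembling ribosomal RNA.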

Additional observations from a re-analysis of the deposited data

Results flagged for a closer look

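The metformin ratio of Smox had opposite signs without and with rapamycin. It was 0.35 in MEP1+Metformin+Rapamycin against MEP1+Rapamycin and -1.18 in MEP1+Metformin against MEP1+CMC, a difference of 1.53 on the log2 scale (95% counting interval 1.35 to 1.70). With 1 library in each condition the difference was not tested. MEP1+CMC differed from the inhibitor libraries in Xist and Ddx3y. In the ratio without rapamycin, treatment and sex-linked expression therefore cannot be told apart.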

How the results depend on the processing

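No paired analysis was possible because each condition has 1 library, and for the same reason no library could be left out as a replicate. Odc1 stayed lower by the rule in both rapamycin comparisons under every scaling run, with log2 ratios of -1.52 to -1.33 without metformin and -1.11 to -1.07 with it. Adding the counts of likely copies kept all 126 ratios within their intervals. Library totals raised every ratio against the naive library by 0.477 to 0.664, and TMM factors from all genes shifted ratios of MEP1+Rapamycin over other libraries by -0.142 to -0.202 and that of MEP1+Metformin+Rapamycin over MEP1+Rapamycin by 0.154. Library totals also moved ratios of MEP1+Metformin and MEP1+Metformin+Rapamycin over MEP1+CMC by 0.122 and 0.115. Counts of the 9 genes past the threshold that moved by over 1.5 times were these. With TMM factors from all genes, MEP1+CMC against No treatment had 0 and MEP1+Rapamycin against No treatment had 2, as it had 2 with DESeq2 size factors. At 1.5-fold, the counts against No treatment were 1 for MEP1+Metformin, 3 for MEP1+Rapamycin and 4 for MEP1+Metformin+Rapamycin, and against the naive library 4 for No treatment and 5 for each of MEP1+Metformin, MEP1+Rapamycin and MEP1+Metformin+Rapamycin. With library totals, MEP1+Metformin against the naive library had 5 and MEP1+Metformin+Rapamycin had 3; without the loci resembling ribosomal RNA these were 4 and 3, and No treatment had 4. Other counts moved less while the genes changed: with library totals MEP1+Rapamycin against the naive library had 3 (Odc1, Azin1 and Sms) in place of 2 (Srm and Oaz2), No treatment 3 (Odc1, Azin1 and Smox) in place of 2 (Odc1 and Srm), and MEP1+CMC had Azin1 in place of Srm. A scaling shifts all genes of a comparison alike, and the cause of the differences between scalings was not tested. The share of all genes past the threshold in MEP1+Metformin+Rapamycin against MEP1+Metformin was 0.345% with at least 2 CPM in every library and 10.6% with no filter.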
